A study of Mus musculus with 6 samples.

Results

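Clathrin-coated pits take up receptors from the plasma membrane. The coat is built from heavy chains and light chains, the AP-2 adaptor links it to the membrane and to cargo, dynamin pinches the pit off, and adaptor proteins with SH3 domains connect the coat to signaling molecules and to actin. In B cells this route carries the B cell receptor with its bound antigen into the cell, and myosin IIa is the motor that acts on the actin network under the membrane. The genes described here are 10 of the 20458 gene names in the deposited table. They were taken by name: Cltc, Clta and Cltb for the clathrin coat, Ap2a1, Ap2b1 and Ap2m1 for AP-2, Dnm2 for dynamin, and Sh3kbp1, Cd2ap and Itsn2 for the adaptors. All 10 were found in the table, and all 10 passed the minimum of 1 FPKM.

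RNA was sequenced from sorted follicular B cells (B220+AA4.1-CD23+CD21lo) of C57BL/6 mice of both genotypes. There were 3 samples of CD23Cre+Myh9wt/fl mice, called wt/fl here, and 3 samples of CD23Cre+Myh9fl/fl mice, called fl/fl. Cre is driven by the CD23 promoter in both groups, and LoxP sites flank an exon of Myh9, which encodes the myosin IIa heavy chain. The control therefore carried 1 floxed allele and Cre and was haploinsufficient, so no genotype with intact Myh9 was compared. The labels give no age or sex for these samples. The study's methods state ages by kind of experiment, and both sexes for its ex vivo work, without naming the sequenced samples. The authors deposited 1 FPKM value (fragments scaled by transcript length and by the number of mapped fragments) per genotype and entry, pooled over its samples. These values carry no spread between samples, and the authors' own test results in the table were not used, so each difference below is one between 2 pooled values, given without a test. An entry of the table is a group of transcripts with 1 coding sequence, and the values of a gene were summed over its entries. A fold is fl/fl over wt/fl of FPKM plus a pseudocount of 1, which understates differences of low genes.

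Myh9 was at 50.6 FPKM in wt/fl cells and 21.1 FPKM in fl/fl, a log2 ratio of -1.22. This value covers the whole transcript, not the floxed exon alone. Myh10 was at 0.297 and 0.262 FPKM, and Myh14 was at 0.0318 and 0.0129 FPKM, in wt/fl cells and fl/fl. The genes that define follicular B cells were present in both genotypes: all 12 markers of that list passed 1 FPKM, and Cd79b, which encodes a signaling subunit of the B cell receptor and was the most abundant of them, was at 1638 and 1739 FPKM.

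The members were expressed in follicular B cells at levels between those of Cltb and Clta. Clta, the light chain A gene, was the most abundant in both genotypes at 306 FPKM in wt/fl cells and 299 FPKM in fl/fl. Its mean level was at percentile 98.1 of the 9866 genes compared, whose median mean level was 14.0 FPKM. Cltb, the light chain B gene, was the least abundant, with 5.69 and 5.04 FPKM. FPKM is per length, so these levels can be set side by side between genes. In the order of their mean levels Itsn2, Sh3kbp1, Cltc, Cd2ap, Dnm2, Ap2m1, Ap2b1 and Ap2a1 lay between them. The order of Dnm2 and Ap2m1 differed between the genotypes.

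**Figure D1:**
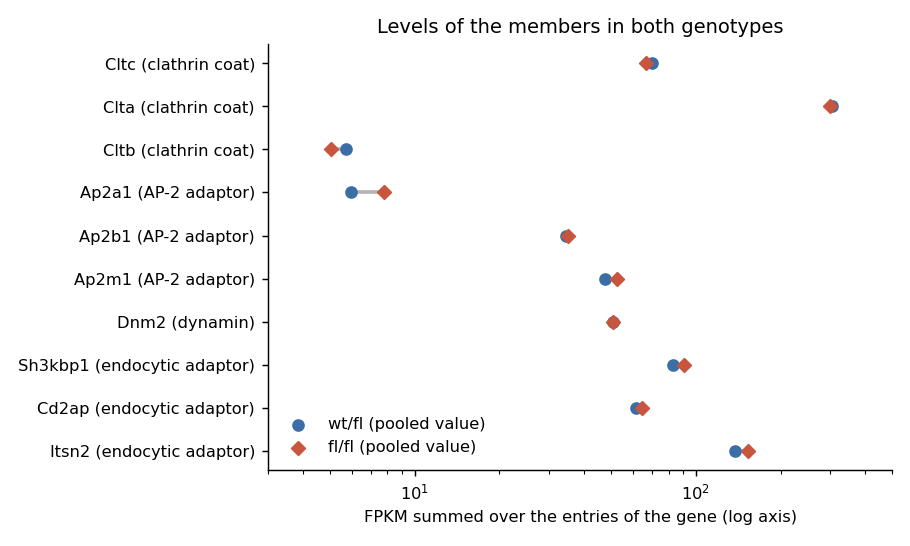
Summed FPKM of each member (log axis), with 1 pooled value per genotype and no error bars, since the table holds none. Clta is at 306 and 299 FPKM and Cltb at 5.69 and 5.04 FPKM, the highest and the lowest of the genes. The gap between the genotypes is widest for Ap2a1 on the log axis.

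Differences were counted from a log2 ratio of 0.32 in size, called the lower limit here, and from 1.5-fold. Of the 10 members, 1 was past the lower limit, Ap2a1, which was higher in fl/fl, and 0 were past 1.5-fold in either direction. Over the 9866 genes compared, 4.60% were past the lower limit on the higher side and 5.48% on the lower side, while 0.791% were at least 1.5-fold higher and 1.53% at least 1.5-fold lower. The members' log2 ratios had a median of 0.048, or -0.0026 with the largest entry of each gene alone, and ran from -0.15 to 0.33. The median over all genes compared was 0.0026, with a 5th percentile of -0.34 and a 95th percentile of 0.31. Of these genes, 76.7% had a ratio inside the members' range. The median size of the ratio, regardless of sign, was 0.105 for the members and 0.109 for all genes compared. With 1 of 10, the count past the lower limit cannot be told apart from the share of all genes.

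**Figure D2:**
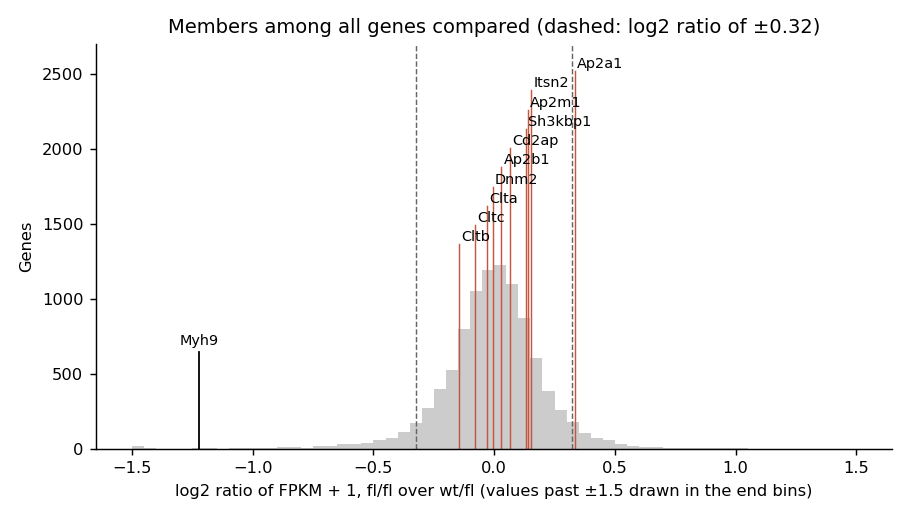
Histogram of the log2 ratio (fl/fl over wt/fl, FPKM plus 1) of the 9866 genes compared, with the 10 members and Myh9 marked. The members run from -0.15 to 0.33, with Ap2a1 alone past the dashed line, and Myh9 lies at -1.22.

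None of the 3 clathrin coat genes passed the lower limit, beside 4.60% of all genes compared higher and 5.48% lower. The log2 ratios of the 3 coat genes were below 0, as were those of 4880 of the 9866 genes compared. Cltc, which encodes the heavy chain that forms the legs of the clathrin triskelion, was at 70.01 FPKM in wt/fl cells and 66.2 in fl/fl cells, a log2 ratio of -0.08. Clta had a log2 ratio of -0.03 and Cltb a ratio of -0.15. The 2 light chains bind the heavy chain, and the light chain transcripts together were 4.45 times Cltc in wt/fl cells and 4.60 times in fl/fl. Clta made up 98.2% of the light chain FPKM in wt/fl cells and 98.3% in fl/fl cells, so Cltb contributed little of the total in both.

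The 2 light chain genes carry small alternative coding exons. Clta has 5 complete coding sequences in GENCODE M21, which come from an exon of 54 bases and an exon of 36 bases used alone, together or not at all, and from a short difference at another exon. Cltb has 2, which differ by an exon of 54 bases. These inserts are known mainly from brain. The Clta and Cltb exons of 54 bases are shown because they are alike, with identical bases in capitals, and 37 of 54 positions, 68.5%, are the same when they are aligned base for base. All coordinates in these lines are on GRCm38. The deposited table lies on another build, and it names entries by a number only, so which entry holds which exon is not known.
Clta exon of 54 bases, chr4:44030215-44030268, plus strand: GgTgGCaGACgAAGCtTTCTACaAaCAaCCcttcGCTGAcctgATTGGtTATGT
Clta exon of 36 bases, chr4:44031400-44031435, plus strand: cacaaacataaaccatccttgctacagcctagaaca
Cltb exon of 54 bases, chr13:54597026-54597079, minus strand: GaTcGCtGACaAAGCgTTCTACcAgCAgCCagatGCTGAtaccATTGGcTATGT

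In the table Cltb had 1 entry and Clta had 4. The largest Clta entry was at 291 FPKM in wt/fl cells and 280 in fl/fl cells, which was 95.0% and 93.5% of the gene. The next entry was at 13.8 and 18.5 FPKM, a log2 ratio of 0.40, and went from 4.50% to 6.16% of the gene. The small entries were at 1.15 and 1.10 FPKM and at 0.258 FPKM in wt/fl with the entry listed at 0 in fl/fl.

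Of the 3 AP-2 members, Ap2a1 passed the lower limit on the higher side, and Ap2m1 and Ap2b1 did not. Over all genes compared, 4.60% passed it higher and 5.48% lower, and nothing particular to AP-2 is read from 1 of 3. The log2 ratio of Ap2b1 was -0.17 with its largest entry alone. AP-2 is a complex of an alpha, a beta, a mu and a sigma subunit. Ap2a1, an alpha subunit gene, was at 5.95 FPKM in wt/fl cells and 7.77 in fl/fl cells, a log2 ratio of 0.33 and a fold of 1.26. Ap2m1, which encodes the mu subunit that binds tyrosine motifs of cargo, was at 47.4 and 52.4 FPKM with a log2 ratio of 0.14. Ap2b1, the beta subunit gene, was at 34.4 and 35.1 FPKM with a log2 ratio of 0.03.

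Ap2a1 shared its locus in the table with Fuz, a gene on the opposite strand whose exons cover 16.7% of the exon bases of Ap2a1 in GENCODE M21 on GRCm38. The library kit does not mark strand, so reads from the shared bases cannot be told apart. Fuz was at 6.49 FPKM in wt/fl cells and 6.73 in fl/fl cells. The same holds for Dnm2 and Tmed1, where 3.88% of the Dnm2 exon bases are shared, and for Itsn2 and Fam228a, where 2.16% are shared. Tmed1 was at 7.26 and 9.39 FPKM, and Fam228a was at 1.67 and 1.63 FPKM. Gm48678, an antisense gene that was not analysed here, covers 11.0% of the Itsn2 exon bases. Fuz, Tmed1 and Fam228a were named after their values were seen, and Gm48678 for its overlap.

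The other AP-2 subunit genes were Ap2a2 and Ap2s1. Ap2a2, the other alpha subunit gene, was at 11.8 FPKM in wt/fl cells and 12.8 in fl/fl cells, and Ap2s1, the sigma subunit gene, was at 44.4 and 42.3 FPKM. Ap2a1 made up 33.5% of the alpha subunit FPKM in wt/fl cells and 37.7% in fl/fl cells. Both alpha genes together reached 0.516 of the Ap2b1 level in wt/fl cells and 0.586 in fl/fl cells. The alpha genes were thus below the beta gene in each genotype on the FPKM scale.

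Dnm2, the dynamin gene that is expressed in most tissues, was at 50.8 FPKM in wt/fl cells and 50.6 in fl/fl cells, a log2 ratio of -0.01, the closest to 0 of the members, and its largest entry alone was at 0.03. It made up 99.9% and 99.8% of the FPKM of the dynamin genes, with Dnm1 listed at 0 in wt/fl cells and at 0.0649 FPKM in fl/fl and Dnm3 at 0.0371 and 0.0261 FPKM. Dnm1 and Dnm3 are members of the dynamin family known from nervous tissue, and were named after their values were seen. Dnm2 had 4 entries in the table, while GENCODE M21 holds 6 complete coding sequences. An exon of 139 bases exists in 2 forms in Dnm2, of which a coding sequence uses 1. They are shown, on GRCm38, because every complete coding sequence holds one or the other, and the bases that differ, 44 of 139, are in capitals.
Dnm2 exon of 139 bases, first form, chr9:21478899-21479037, plus strand: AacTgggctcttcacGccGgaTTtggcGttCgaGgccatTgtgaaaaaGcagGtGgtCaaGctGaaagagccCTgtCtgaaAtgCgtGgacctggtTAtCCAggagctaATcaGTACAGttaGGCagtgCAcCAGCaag
Dnm2 exon of 139 bases, second form, chr9:21480407-21480545, plus strand: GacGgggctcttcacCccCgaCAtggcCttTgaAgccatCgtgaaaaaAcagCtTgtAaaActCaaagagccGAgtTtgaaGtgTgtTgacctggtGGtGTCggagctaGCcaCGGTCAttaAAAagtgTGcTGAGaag

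The largest Dnm2 entry was at 37.4 FPKM in wt/fl cells and 38.2 in fl/fl cells, which was 73.6% and 75.5% of the gene. The other Dnm2 entries were at 7.89 and 6.83 FPKM, at 3.32 and 2.86 FPKM, and at 2.21 and 2.70 FPKM. No share of a Dnm2 entry differed by more than 2.02 percentage points between the genotypes.

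None of the 3 adaptor genes passed the lower limit, beside 4.60% of all genes compared higher and 5.48% lower. The log2 ratios of the 3 adaptor genes were above 0, as were those of 4986 of the 9866 genes compared. With the largest entry alone the ratio was 0.03 for Itsn2 and -0.03 for Sh3kbp1. Itsn2, which encodes a scaffold that binds dynamin and other coat proteins, was at 138 FPKM in wt/fl cells and 153 in fl/fl cells, a log2 ratio of 0.15. Sh3kbp1, which encodes the adaptor CIN85 that binds Cbl ubiquitin ligases, was at 82.8 and 90.8 FPKM, a log2 ratio of 0.13. Cd2ap, a relative of Sh3kbp1 with the same kind of SH3 domains, was at 61.2 and 64.1 FPKM, a log2 ratio of 0.07. Sh3kbp1 was 1.35 times Cd2ap in wt/fl cells and 1.42 times in fl/fl. Itsn1, the other intersectin gene, was at 3.98 and 3.61 FPKM, so Itsn2 made up 97.2% of the intersectin FPKM in wt/fl cells and 97.7% in fl/fl cells. Itsn1 was named after its values were seen.

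The share of the entries within a gene differed most between the genotypes for Ap2b1 and Sh3kbp1. Of the members, 6 had more than 1 entry. The Ap2b1 entries were at 21.4 FPKM in wt/fl against 19.0 in fl/fl for the larger and 13.0 against 16.2 for the smaller, so the smaller went from 37.8% to 46.0% of the gene, a shift of 8.19 percentage points. The main Sh3kbp1 entry was at 60.6 and 59.1 FPKM, and the next was at 22.2 and 31.7 FPKM, which took it from 26.9% to 34.9% of the gene. In Itsn2 the entries were at 80.9 and 82.9 FPKM and at 56.6 and 70.4 FPKM, with a shift of 4.86 points. The smallest Itsn2 entry was at 0.311 FPKM in wt/fl cells and listed at 0 in fl/fl.

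Of the 6 members with more than 1 entry, 2 had a shift of at least 5 points. Of the 1440 genes with more than 1 entry and a mean of at least 5 FPKM, 50.8% had one, and their median shift was 5.09 points. The members' share is no larger than this background. The limits of 5 points and 5 FPKM were chosen after the values were seen. FPKM is divided among overlapping entries by estimation, and the precision of that division is unknown here. The internal alternative coding exons of Ap2b1 and Sh3kbp1 in GENCODE M21 are shown because these genes had a shift of at least 5 points. Alternative first and last coding exons are not shown. The Ap2b1 exon of 42 bases is in 3 of 4 complete coding sequences, and the Sh3kbp1 exons are each in 1 of 5. The Sh3kbp1 coding sequences run from 1281 to 2127 bases, so these exons are not all of their differences. Which entry holds which exon is not known. All bases are in lower case, since no part is singled out, and the coordinates are on GRCm38.
Ap2b1 exon of 42 bases, chr11:83364795-83364836, plus strand: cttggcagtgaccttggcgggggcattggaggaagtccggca
Sh3kbp1 exon of 57 bases, chrX:159817242-159817298, plus strand: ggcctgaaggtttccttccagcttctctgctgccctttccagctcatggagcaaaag
Sh3kbp1 exon of 75 bases, chrX:159824475-159824549, plus strand: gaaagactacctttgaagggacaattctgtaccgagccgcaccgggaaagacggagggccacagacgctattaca
Sh3kbp1 exon of 111 bases, chrX:159841076-159841186, plus strand: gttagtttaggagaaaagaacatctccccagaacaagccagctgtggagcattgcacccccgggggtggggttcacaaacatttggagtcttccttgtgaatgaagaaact

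**Figure D3:**
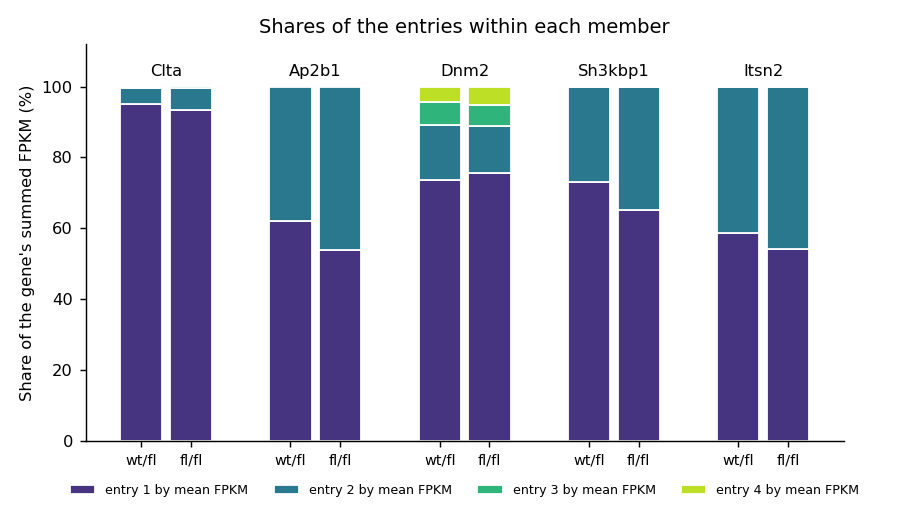
Share of each entry in the summed FPKM of its gene (%), for the 5 members with at least 2 entries of 1 FPKM or more, in wt/fl cells and fl/fl (1 pooled value each). The smaller Ap2b1 entry goes from 37.8% to 46.0%, and the second Sh3kbp1 entry from 26.9% to 34.9%.

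Counted by entry, 18 of the 22 member entries passed a mean of 1 FPKM. Among these, 3 were higher in fl/fl past the lower limit and 0 lower, against 8.27% and 9.46% of the 11411 entries compared. The 3 were the Ap2a1 entry, the second Clta entry and the second Sh3kbp1 entry, whose log2 ratios were 0.33, 0.40 and 0.49.

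Beside the members, 93 other genes of clathrin endocytosis were found in the table, of which 75 passed 1 FPKM. Their median log2 ratio was -0.013, and 33 were above 0 and 42 below. Past the lower limit were 3 of the 75 on the higher side, Ehd3, Nedd4 and Fnbp1l, and 4 on the lower side, Hspa8, Hip1, Numb and Hgs, beside 4.60% and 5.48% of all genes compared, so the counts are near the background. Except for Ehd3 and Hspa8, these genes were named after their values were seen. Hspa8, the chaperone that removes clathrin coats and also a heat shock family gene, was at 1574 FPKM in wt/fl cells and 788 in fl/fl cells, a log2 ratio of -0.997. Ehd3, which acts in endosomal recycling, was at 4.14 and 6.88 FPKM with a ratio of 0.62.

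Among the coat nucleators and cargo adaptors, 17 of 26 passed 1 FPKM and their median ratio was -0.055, with 4 above 0 and 13 below, while over all genes compared 4986 were above 0 and 4880 below. Past the lower limit 0 of the 17 were higher and 2 lower, Hip1 and Numb, beside 5.48% of all genes on the lower side, and nothing particular to the list is read from these counts. Picalm, Eps15 and Eps15l1, which act with AP-2 at the forming coat, were the most abundant. Picalm was at 44.5 FPKM in wt/fl cells and 44.9 in fl/fl cells, Eps15 at 42.5 and 42.02 FPKM, and Eps15l1 at 39.5 and 38.7 FPKM. The medians of the other lists were 0.0043 for 24 genes of membrane bending, scission and uncoating, 0.00045 for 16 ubiquitin ligase and sorting genes, and 0.0079 for 16 genes of early endosomes and recycling. Besides Hspa8, Bin1 was at 111 and 104 FPKM and Fnbp1 at 94.6 and 99.0 FPKM. In the sorting list Vps28 was at 161 and 176 FPKM, Grb2 at 55.2 and 57.9 FPKM, and Cbl at 52.5 and 54.5 FPKM. In the endosome list Rab7 was at 277 and 313 FPKM, Rab21 at 85.2 and 84.9 FPKM, and Rab4b at 70.1 and 71.1 FPKM.

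**Figure D4:**
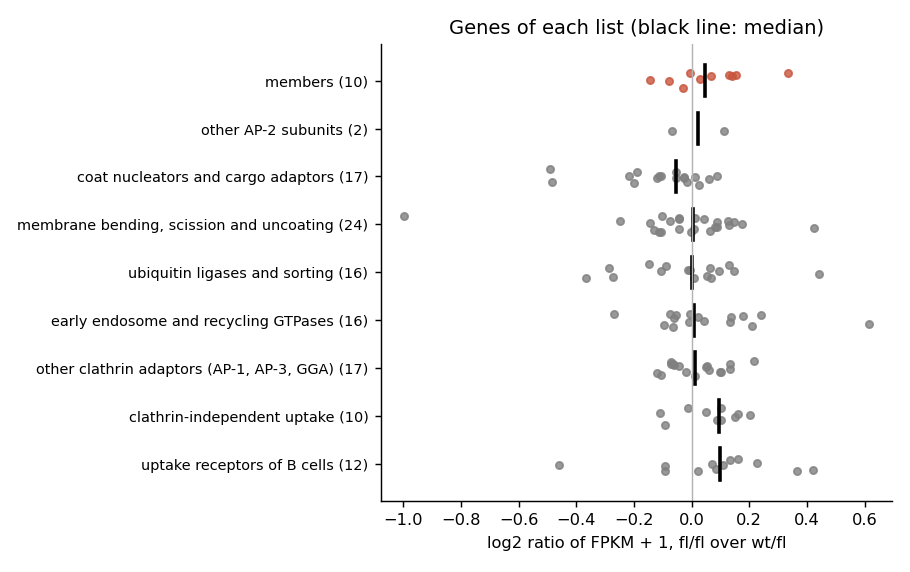
The log2 ratio (fl/fl over wt/fl, FPKM plus 1) of each gene that passed 1 FPKM, by list, with the median as a black line. The members have a median of 0.048, and the coat nucleators and cargo adaptors one of -0.055.

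Clathrin, AP-2 and dynamin are present in most cell types, so the markers of other blood cells are given beside the members. Their summed levels were lower in fl/fl for each list. The summed neutrophil markers were at 366 FPKM in wt/fl cells and 65.0 in fl/fl cells. Of 11 neutrophil markers found, 6 passed 1 FPKM, and all 6 were at least 1.5-fold lower in fl/fl, beside 1.53% of all genes compared. S100a9, the most abundant of these markers, was at 175 and 34.5 FPKM, and Elane, Mpo and Cebpe were listed at 0 in fl/fl only. In wt/fl cells Elane, Mpo and Cebpe were at 0.119, 0.0916 and 0.257 FPKM, each under the minimum of 1 FPKM. The summed erythroid markers were at 56.1 FPKM in wt/fl cells and 8.01 in fl/fl cells, with 1 of 6 past 1 FPKM, Beta-s, a beta globin gene, at 52.0 and 7.08 FPKM. The summed macrophage and monocyte markers, 6 of 11 past 1 FPKM, were at 90.3 and 60.7 FPKM, with Lyz2 at 72.6 and 44.9 FPKM making up most of the sum. Of those 6 markers 4 were lower and 2 higher in fl/fl, the latter being C1qb at 1.61 and 2.39 FPKM and C1qc at 1.60 and 2.04 FPKM, which were named after their values were seen. The plasma cell markers, 5 of 6 past 1 FPKM, summed to 308 and 248 FPKM. Most of that sum was Mzb1 at 189 and 140 FPKM, Irf4 at 60.8 and 58.9 FPKM and Xbp1 at 48.8 and 45.9 FPKM. These genes are not restricted to plasma cells, so the sum does not measure plasma cells apart from B cells. Irf4 and Xbp1 were named after their values were seen. At least 1.5-fold lower were 2 of the 5 plasma cell markers, beside 1.53% of all genes compared. These 2 were Igj at 5.40 and 0.617 FPKM and Sdc1 at 2.30 and 1.13 FPKM, which were named after their values were seen. The T cell markers, 5 of 9 past 1 FPKM, summed to 25.8 and 23.9 FPKM, with Lck at 14.5 FPKM in both making up most of the sum. The sort for B220 and CD23 is made to remove neutrophils and erythroid cells. The part of these cells in the members' values was not tested. Fewer cells of a type and less RNA per cell cannot be told apart in these bulk samples.

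**Figure D5:**
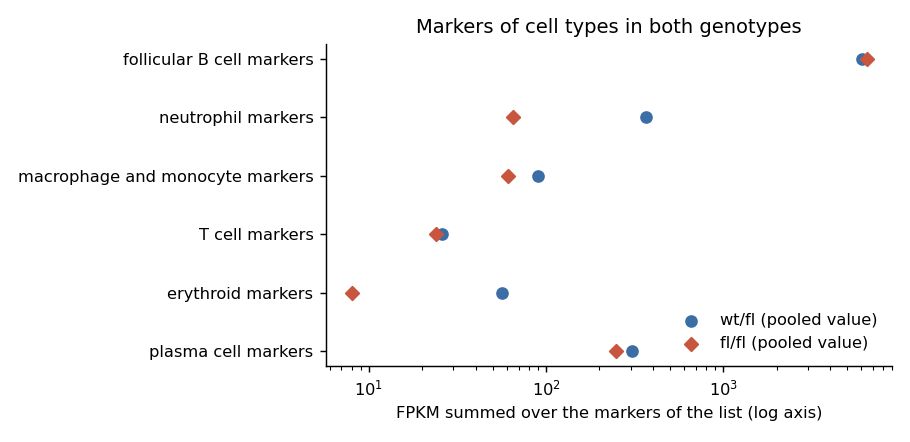
FPKM summed over the markers of each cell type (log axis), with 1 pooled value per genotype. The follicular B cell markers sum to 6050 in wt/fl cells and 6460 in fl/fl cells, while the neutrophil markers sum to 366 and 65.0.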

How the data were processed

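RNA of sorted follicular B cells, in 3 wt/fl and 3 fl/fl samples, was isolated with TriZol and RNeasy. It was amplified with the Ovation RNA-Seq System V2, and libraries were made with TruSeq Nano DNA. The submitters' processing notes name Bowtie, TopHat and Cufflinks without versions, and the builds mm10 and GRCm38. The loci do not lie on these: only 4.23% of 19165 gene starts are within 1000 bases of GRCm38, and 118 entries lie on sequences named random, as in mm9. The authors deposited FPKM values, 1 per genotype and entry, in the layout of Cuffdiff. Fold changes, test statistics, p-values and q-values of the authors' own comparison are in the same table and were not used. Depth is unknown, since low FPKM times transcript length gave no whole reads. FPKM was summed per gene name, 44 entries with names read as dates were left out, and genes whose mean reached 1 FPKM were compared as log2(FPKM + 1) with Python 3.11.15, pandas 2.3.3 and numpy 2.4.6, tested on simulated data. A test across samples, planned in case the table held a value per sample, could not be made. Genes named were all members, Myh9, Myh10, Myh14, Ap2a2, Ap2s1, the 3 most abundant genes of each other endocytosis list and those past 1.5-fold, and the most abundant marker of each cell type and markers listed at 0. A few listed or overlapping genes are left unnamed and not reported here. Members and lists were chosen with earlier results of these data known.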

Additional observations from a re-analysis of the deposited data

How the results depend on the processing

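The counts of members past a log2 ratio of 0.32 and past 1.5-fold were the same, 1 and 0, under all 7 alternatives run: pseudocounts of 0.1 and 0.5, upper quartile scaling, scaling to an equal total, the largest entry of each gene alone, a mean of at least 5 FPKM, and no filter. The members' median log2 ratio, 0.048, was 0.042 with upper quartile scaling and -0.0026 with the largest entry alone, where the smaller entries of Ap2b1 and Sh3kbp1, which were higher in fl/fl, are left out. The signs of Ap2b1, Dnm2 and Sh3kbp1 differed with the largest entry alone, and 10 of 10 signs were the same under the other alternatives. The median of the other endocytosis genes was -0.018 with upper quartile scaling and -0.016 with scaling to an equal total, and the cause was not tested. Leaving out Hspa8, an alternative chosen after seeing the data, gave -0.010. Restricting the shares to entries of at least 1 FPKM left the largest shift of Ap2b1 at 8.19 points and of Sh3kbp1 at 8.03 points. No paired analysis was possible because the table holds 1 pooled value per genotype, and no replicate could be left out for the same reason. The spread between samples and the depth are unknown, so small differences cannot be weighed against error.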

Other observations

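Genes of neighbouring uptake routes ranged from listed at 0 to levels near those of the most abundant members. Of the adaptors that act with clathrin at the Golgi and endosomes, 17 of 17 passed 1 FPKM. Their median log2 ratio of fl/fl over wt/fl was 0.013. Past a log2 ratio of 0.32 were 0 of the 17, beside 4.60% of all genes compared higher and 5.48% lower. Nothing particular to this list is read from that count. Ap1m1 was at 64.4 FPKM in wt/fl cells and 66.6 in fl/fl, Gga2 at 59.3 and 65.2 FPKM, and Ap3b1 at 44.4 and 46.4 FPKM. Of the genes for uptake without clathrin, 10 of 17 in the table passed 1 FPKM, with a median of 0.094. Of these, 0 were past a log2 ratio of 0.32, beside 4.60% of all genes compared higher and 5.48% lower. This count too is near the background. Rac2 was at 250.0 and 279.8 FPKM, Cdc42 at 229.6 and 246.2 FPKM, and Rhoa at 226.8 and 234.8 FPKM. Cav1, which encodes caveolin, was at 0.0116 FPKM in wt/fl cells and listed at 0 in fl/fl.

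Of the uptake receptors of B cells, 12 of 15 passed 1 FPKM, with a median log2 ratio of 0.098. Cd79a, which encodes a signaling subunit of the B cell receptor, was at 1098 and 1115 FPKM. Receptors past a log2 ratio of 0.32 included Fcer2a, higher, and Fcgr2b, lower, which were named after their values were seen. Fcer2a, which encodes CD23, was at 439 FPKM in wt/fl cells and 588 in fl/fl. Fcgr2b, the inhibitory Fc receptor gene, was at 75.5 and 54.6 FPKM. Cre is driven by the CD23 promoter in both genotypes and cells were sorted for CD23. The paper reports higher surface CD23, a protein measure, on fl/fl follicular B cells. It reports a similar surface phenotype after deletion of Myh9 by a Cre that tamoxifen activates. The RNA differences of Fcer2a and Fcgr2b were not tested here.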
